A study of Mus musculus with 12 samples.

Results

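Messenger RNA of 7 ligands of the tumor necrosis factor (TNF) superfamily, Tnfsf9, Fasl, Cd40lg, Tnfsf11, Tnfsf14, Tnfsf8 and Tnfsf10, was examined in EL-4, a line of mouse T lymphoma cells. Each ligand was represented by the probe set whose only annotated symbol was that gene, and all 7 were found once among 19938 genes. The data came from Affymetrix Mouse Gene 1.0ST arrays of 4 groups with 3 biological replicates each, 12 arrays in all. The first group was pretreated for 30 min with cycloheximide (CHX) at 10 μg/ml, a blocker of protein synthesis dissolved in DMSO, and then stimulated for 4 h with P/I, which is PMA, a phorbol ester used at 10 ng/ml, plus the calcium ionophore ionomycin, used at 1 μM. The second received DMSO and P/I. The third received CHX, and the fourth received DMSO, both without stimulation (0 h). All groups thus carried the solvent, and how long the third group stayed in CHX beyond the pretreatment is not given in the sources used here. Signals are log2 robust multichip average (RMA) values, so a difference of 1 is a doubling of the signal. Those of the ligands are compared between groups for 1 gene at a time, since the probe sets of different genes differ in response.

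TNF superfamily ligands are mostly trimeric membrane proteins, some of them shed from the cell surface, that bind receptors of the matching receptor superfamily. Receptors with a cytoplasmic death domain can recruit FADD and caspase-8 and kill the cell, whereas others bind TRAF adaptors and activate NF-κB and mitogen-activated protein kinases. Activated T cells are a known source of many of these ligands, which they use to costimulate other T cells, to license B cells and dendritic cells and to end immune responses by killing. P/I acts downstream of the T cell receptor: PMA activates protein kinase C and ionomycin raises intracellular calcium, and with them the transcription factors AP-1, NF-κB and NFAT. In such designs a gene whose mRNA rises with P/I regardless of CHX is called a primary response gene, and one whose induction is lower with CHX a secondary response gene.

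RefSeq promoter windows on mouse build GRCm38.p6, from 250 bases before to 50 bases after the annotated transcription start, were matched for 5 of the 7 ligands, namely Tnfsf14, Tnfsf8, Tnfsf11, Fasl and Tnfsf10. No window was available for Tnfsf9 and Cd40lg. Of the ligands shown, the mRNA of the first 4 rose with P/I and was lower with CHX, while Tnfsf10 passed no test. Capitals mark letter matches, on either strand, to the NFAT core GGAAA, the AP-1 element TGANTCA or the TATA motif TATAA. The cAMP response element TGACGTCA and the NF-κB decamer were also searched and matched none of the 5 windows. The Tnfsf14 window is chr17:57194132-57194431, the Tnfsf8 window chr4:63861235-63861534, the Tnfsf11 window chr14:78307994-78308293 and the Fasl window chr1:161788446-161788745, all on the minus strand, and the Tnfsf10 window is chr3:27316827-27317126 on the plus strand. Each sequence reads 5′ to 3′ in the direction of the gene.
Tnfsf14: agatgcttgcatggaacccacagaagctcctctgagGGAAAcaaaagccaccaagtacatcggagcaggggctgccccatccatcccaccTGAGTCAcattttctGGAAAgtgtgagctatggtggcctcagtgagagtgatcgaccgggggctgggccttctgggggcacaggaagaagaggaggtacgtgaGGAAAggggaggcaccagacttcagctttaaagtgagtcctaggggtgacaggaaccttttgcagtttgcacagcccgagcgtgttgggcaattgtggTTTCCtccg
Tnfsf8: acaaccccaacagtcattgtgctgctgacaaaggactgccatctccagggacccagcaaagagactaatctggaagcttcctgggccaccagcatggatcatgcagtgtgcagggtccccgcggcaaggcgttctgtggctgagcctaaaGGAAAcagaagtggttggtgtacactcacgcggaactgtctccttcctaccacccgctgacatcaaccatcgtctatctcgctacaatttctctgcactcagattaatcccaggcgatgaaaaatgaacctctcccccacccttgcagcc
Tnfsf11: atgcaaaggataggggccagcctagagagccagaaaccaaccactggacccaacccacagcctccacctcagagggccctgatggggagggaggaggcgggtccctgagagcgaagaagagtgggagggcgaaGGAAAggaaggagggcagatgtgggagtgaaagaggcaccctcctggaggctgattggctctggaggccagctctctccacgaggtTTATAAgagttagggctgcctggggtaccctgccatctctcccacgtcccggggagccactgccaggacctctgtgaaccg
Fasl: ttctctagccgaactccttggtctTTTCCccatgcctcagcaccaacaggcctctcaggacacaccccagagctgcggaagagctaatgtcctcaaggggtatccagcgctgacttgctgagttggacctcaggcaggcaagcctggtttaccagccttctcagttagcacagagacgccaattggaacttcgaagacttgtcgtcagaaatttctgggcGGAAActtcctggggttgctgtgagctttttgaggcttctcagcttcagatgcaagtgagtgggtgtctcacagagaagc
Tnfsf10: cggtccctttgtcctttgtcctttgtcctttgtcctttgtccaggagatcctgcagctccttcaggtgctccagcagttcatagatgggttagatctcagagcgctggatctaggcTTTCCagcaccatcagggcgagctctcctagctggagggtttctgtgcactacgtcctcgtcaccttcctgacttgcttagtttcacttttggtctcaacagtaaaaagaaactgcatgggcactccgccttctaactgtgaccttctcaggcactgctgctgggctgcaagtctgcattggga

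The Tnfsf14 window held 4 NFAT cores, 3 before the start and 1 after it, and the only AP-1 element of the 5 windows, which spans positions -160 to -154 from the start. Tnfsf8 had 1 NFAT core at -100 to -96, and Tnfsf10 had 1 on the opposite strand at -134 to -130. Fasl had 2, at -226 to -222 and at -30 to -26. Tnfsf11 combined 1 NFAT core at -117 to -113 with a TATA motif at -30 to -26, which also reads on the opposite strand because the letters are palindromic there. At least 1 NFAT core is present in 61.3% of the 32851 promoter windows of the same length in the table, a TATA motif in 24.9% and an AP-1 element in 7.81%. The NF-κB decamer is found in 4.51% of them and the cAMP response element in 1.79%. An NFAT core can lie within an NF-κB decamer, but no decamer was present here. GC content was between 52.3% for Tnfsf10 and 61.7% for Tnfsf11, beside a median of 52.7% over all windows. A match of letters is a description and not evidence of a bound site.

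**Figure D1:**
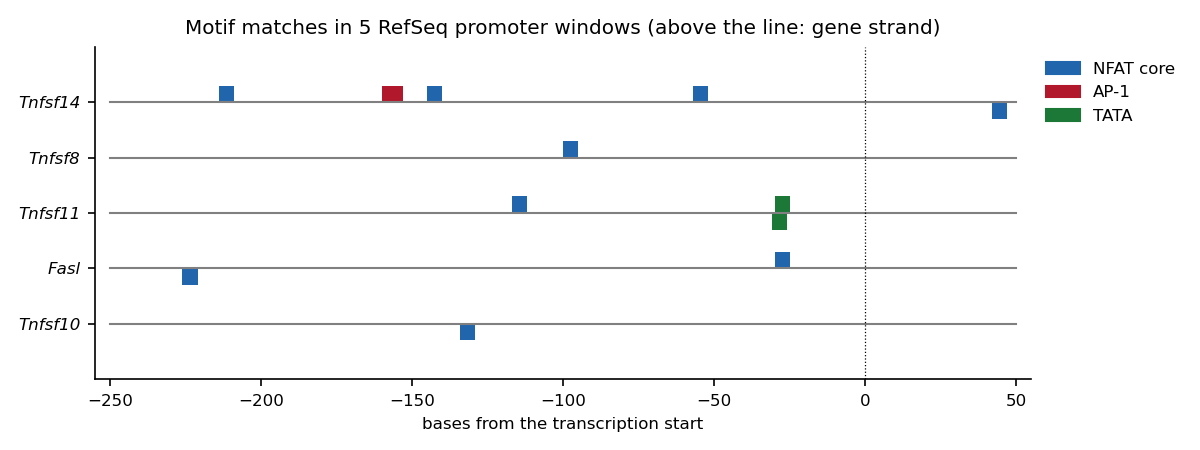
Positions of motif matches in the 5 promoter windows. The x axis gives bases from the transcription start (dotted line), blocks above each line lie on the gene's own strand and blocks below it on the opposite strand; all 5 windows hold an NFAT core, Tnfsf14 alone an AP-1 element and Tnfsf11 alone a TATA motif.

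To find which of the ligands respond to stimulation, P/I-stimulated and unstimulated cells, both treated with DMSO, were compared. The unstimulated cells are labelled 0 h and the stimulated ones 4 h. P/I and a longer time in culture with DMSO thus cannot be told apart here. The mRNAs of 5 of the 7 ligands rose and none fell at a Benjamini-Hochberg adjusted p under 0.1 from limma, the threshold used throughout. Over all 23410 probe sets tested, 9.05% were higher and 8.42% lower. The median log2 fold change was 2.34 over the 7 ligands and -0.03 over all probe sets. Tnfsf8 rose 17.5-fold and Tnfsf14 17.0-fold, followed by Tnfsf9 with 8.33-fold, Tnfsf11 with 5.05-fold and Fasl with 2.35-fold. These 5 calls were kept in every alternative analysis that tested them.

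To separate the ligands by the effect of CHX on their mRNA level, P/I-stimulated cells with CHX were then compared with P/I-stimulated cells without it. Fasl, Tnfsf11, Tnfsf14 and Tnfsf8 were lower with CHX, and no ligand was called higher in the fit without the replicate number. Among all probe sets 12% were lower and 13.2% higher, a split of 3096 higher and 2818 lower that became 3751 and 2194 after each array was centred on its median and 4201 and 2669 after quantile normalization. The ligand median was -0.95, beside 0.01 for all probe sets. By the study's rule these 4 ligands were secondary response genes, and Tnfsf9, whose mean with P/I and CHX lay above that with P/I, was the 1 primary response gene. The other 2, Cd40lg and Tnfsf10, were not called for P/I in DMSO-treated cells in that fit. With the replicate number as a block Cd40lg was called (limma adjusted p = 0.0809) and was then a primary response gene too.

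**Figure D2:**
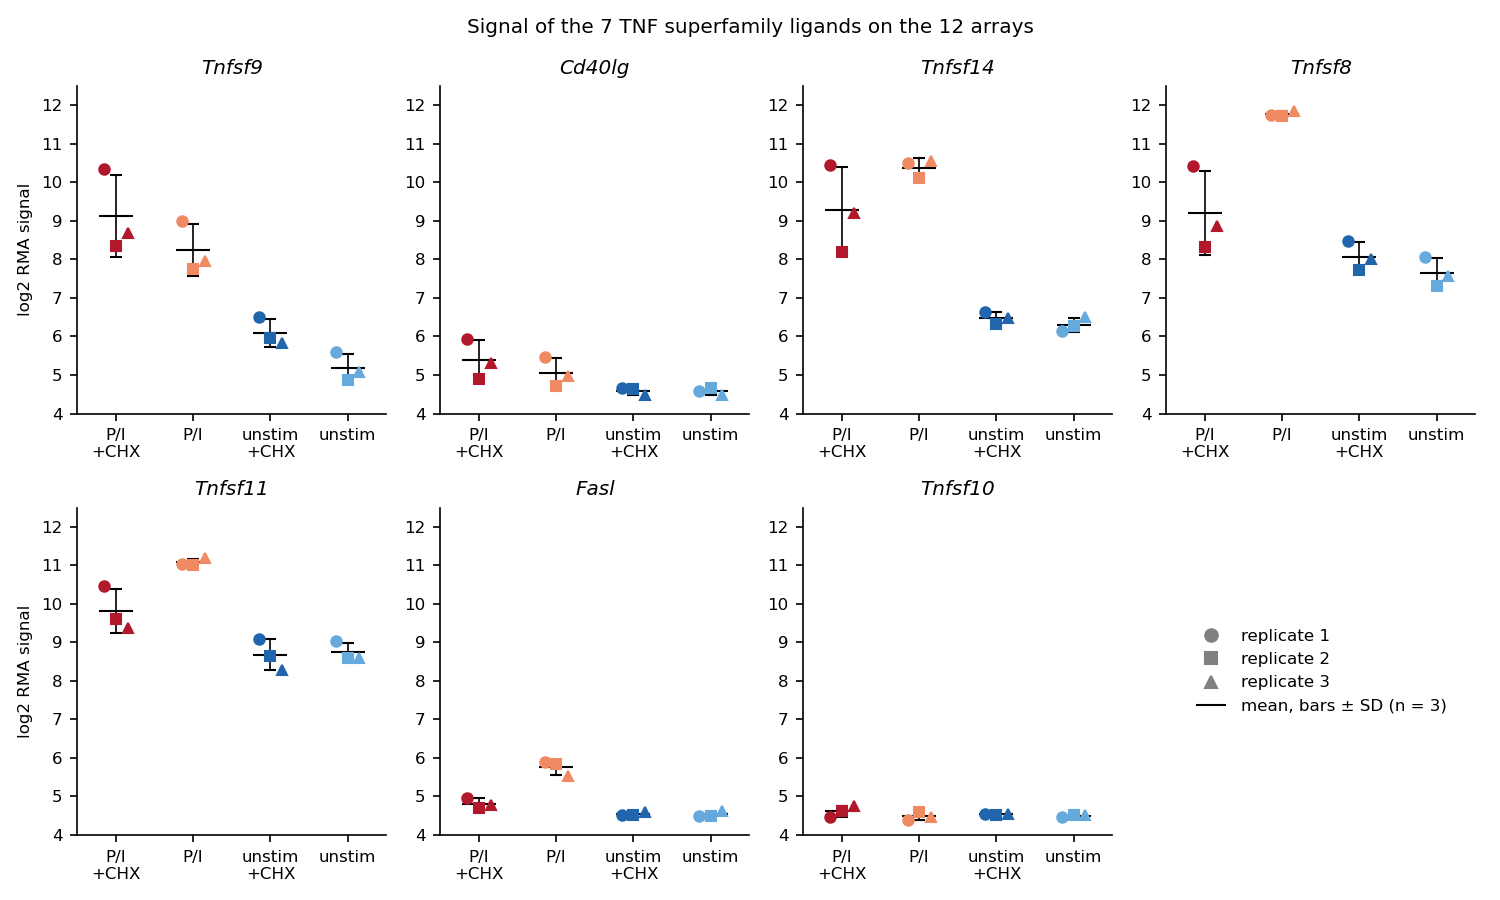
Signal of each ligand on the 12 arrays, with 1 panel per gene. The y axis is the log2 RMA signal, symbols are the 3 replicates and horizontal lines with bars the mean ± SD; Tnfsf14, Tnfsf8, Tnfsf11 and Fasl have their highest mean in P/I-stimulated cells, Tnfsf9 in P/I-stimulated cells with CHX, and Tnfsf10 lies between 4.39 and 4.74 on all arrays.

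Tnfsf9 encodes 4-1BBL, the ligand of the costimulatory receptor 4-1BB. Its signal was 10.35, 8.34 and 8.69 in P/I-stimulated cells with CHX and 9.00, 7.75 and 7.95 in P/I-stimulated cells. It was 6.50, 5.96 and 5.82 in unstimulated cells with CHX and 5.60, 4.86 and 5.07 in unstimulated cells. Every stimulated array lay above every unstimulated one, whereas the 2 stimulated groups overlapped. P/I raised Tnfsf9 by log2 3.06 (SE 0.47, limma adjusted p = 0.000864) in DMSO-treated cells and by log2 3.03 (SE 0.47, limma adjusted p = 0.000819) in CHX-treated cells. The difference between these responses was -0.03 with a 95% confidence interval from -1.48 to 1.42, which does not exclude a difference of more than 2-fold either way. CHX differed from DMSO by 0.89 during P/I (interval -0.13 to 1.92, limma adjusted p = 0.245) and by 0.92 without stimulation (interval -0.11 to 1.94, limma adjusted p = 0.761). Within each replicate number the array with CHX was the higher one, both during P/I and without stimulation. Blocking on the number called the effect during P/I (limma adjusted p = 0.00928), but there the numbers were not read as pairs. In unstimulated cells all 3 arrays with CHX lay above all 3 arrays with DMSO, although the call was not made. The size of the CHX effect during P/I varied with single arrays. It was 0.28 without replicate 1 of the P/I-stimulated CHX group (limma adjusted p = 0.724). Without replicate 1 of the P/I-stimulated DMSO group it was 1.28 (limma adjusted p = 0.0876). Leaving out replicate 1 of all 4 groups brought that effect to 0.67 (limma adjusted p = 0.00342) and the CHX effect without stimulation to 0.92 (limma adjusted p = 0.0144).

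Cd40lg encodes CD40 ligand, through which helper T cells activate B cells and dendritic cells. Its signal was 5.93, 4.90 and 5.31 in P/I-stimulated cells with CHX, 5.48, 4.71 and 4.97 in P/I-stimulated cells, 4.67, 4.63 and 4.48 in unstimulated cells with CHX and 4.59, 4.66 and 4.47 in unstimulated cells. Replicate 1 was the highest array of both stimulated groups. Each stimulated group lay above both unstimulated groups, although the closest arrays differed by less than the SD of either stimulated group. In DMSO-treated cells the P/I effect of 0.48 did not pass the threshold (interval -0.03 to 0.99, limma adjusted p = 0.245). It was 0.27 without replicate 1 of the P/I-stimulated DMSO group (limma adjusted p = 0.564), and blocking on the replicate number brought it past the threshold (limma adjusted p = 0.0809). In CHX-treated cells Cd40lg rose 1.73-fold (log2 0.79, SE 0.23, limma adjusted p = 0.0365). The difference between both P/I responses was 0.31 (interval -0.41 to 1.03, limma adjusted p = 0.657), so a larger response with CHX is not shown. The call in CHX-treated cells was lost without replicate 1 of the P/I-stimulated CHX group (log2 0.51, limma adjusted p = 0.11) and without replicate 3 of the unstimulated CHX group (0.73, limma adjusted p = 0.116).

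Tnfsf14 encodes LIGHT, a ligand of HVEM and of the lymphotoxin β receptor. It had 10.44, 8.20 and 9.21 in P/I-stimulated cells with CHX and 10.49, 10.11 and 10.55 in P/I-stimulated cells. Without stimulation it had 6.63, 6.32 and 6.48 with CHX and 6.13, 6.27 and 6.50 with DMSO. All stimulated arrays lay above all unstimulated arrays, also those with CHX. Tnfsf14 rose by log2 4.08 (SE 0.40, limma adjusted p = 3.47e-05) with P/I in DMSO-treated cells and by log2 2.81, or 7.01-fold, in CHX-treated cells (SE 0.40, limma adjusted p = 0.000498). During P/I it was 2.14-fold lower with CHX (log2 -1.10, SE 0.40, limma adjusted p = 0.0784). The 2 stimulated groups overlapped, since replicate 1 with CHX lay among the arrays with P/I alone. Without that array the CHX effect was -1.68 (limma adjusted p = 0.000686) and without replicate 2 of the same group -0.56 (limma adjusted p = 0.27). The call was also lost without replicate 3 of that group, replicate 1 or 3 of the P/I-stimulated DMSO group, replicate 2 of the unstimulated DMSO group, or replicate 2 or 3 of the unstimulated CHX group, with limma adjusted p between 0.101 and 0.196. The difference between the P/I responses was -1.27 (interval -2.52 to -0.03, limma adjusted p = 0.218), and it was -1.85 without replicate 1 of the P/I-stimulated CHX group (limma adjusted p = 0.00537) and -0.73 without replicate 2 of that group (limma adjusted p = 0.36).

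Tnfsf8 encodes CD30 ligand. Its signal was 10.42, 8.32 and 8.86 in P/I-stimulated cells with CHX, against 11.75, 11.72 and 11.86 in P/I-stimulated cells. The unstimulated arrays had 8.48, 7.72 and 8.01 with CHX and 8.06, 7.30 and 7.57 with DMSO. The P/I-stimulated DMSO group stood above all other arrays, whereas P/I-stimulated cells with CHX overlapped the unstimulated cells with CHX. In DMSO-treated cells Tnfsf8 rose by log2 4.13 (SE 0.42, limma adjusted p = 4.12e-05) with P/I. It was 5.95-fold lower with CHX during P/I (log2 -2.57, SE 0.42, limma adjusted p = 0.000837). The response to P/I was 1.13 in CHX-treated cells (SE 0.42, limma adjusted p = 0.0922). The difference between the responses, -3.00 on the log2 scale (SE 0.59, limma adjusted p = 0.00738), was the largest in size among the 7 ligands. Without replicate 1 of the P/I-stimulated CHX group the response in CHX-treated cells was 0.52 (limma adjusted p = 0.218). It also lost its call without replicate 3 of that group, or without replicate 2 or 3 of any of the other 3 groups, with limma adjusted p between 0.11 and 0.251.

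Tnfsf11 encodes RANKL, which drives osteoclast formation and acts on dendritic cells. It had 10.46, 9.60 and 9.38 in P/I-stimulated cells with CHX and 11.04, 11.00 and 11.18 in P/I-stimulated cells. The unstimulated cells had 9.10, 8.65 and 8.29 with CHX and 9.03, 8.59 and 8.60 with DMSO. The order of the groups was thus P/I, then P/I with CHX, then both unstimulated groups, with no overlap between these 3 levels. Tnfsf11 rose by log2 2.34 (SE 0.26, limma adjusted p = 8.75e-05) with P/I in DMSO-treated cells and by log2 1.13 (SE 0.26, limma adjusted p = 0.0096) in CHX-treated cells. During P/I it was 2.40-fold lower with CHX (log2 -1.26, SE 0.26, limma adjusted p = 0.0041). The difference between the responses was -1.20 (SE 0.37, limma adjusted p = 0.0636). That last call was lost without replicate 1 or 2 of the unstimulated CHX group, replicate 2 or 3 of the unstimulated DMSO group, replicate 2 or 3 of the P/I-stimulated CHX group or replicate 3 of the P/I-stimulated DMSO group, with limma adjusted p between 0.11 and 0.147.

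Fasl encodes Fas ligand, the ligand with which cytotoxic and activated T cells kill cells that carry Fas. Its signal was 4.96, 4.71 and 4.77 in P/I-stimulated cells with CHX, against 5.90, 5.86 and 5.54 in P/I-stimulated cells. In unstimulated cells it was 4.51, 4.51 and 4.60 with CHX and 4.48, 4.50 and 4.62 with DMSO. The P/I-stimulated DMSO group did not overlap any other group. Fasl rose by log2 1.23 (SE 0.10, limma adjusted p = 1.08e-05) with P/I in DMSO-treated cells and was 1.93-fold lower with CHX during P/I (log2 -0.95, SE 0.10, limma adjusted p = 5.5e-05). The response to P/I in CHX-treated cells, 0.27, did not pass the threshold (interval 0.05 to 0.50, limma adjusted p = 0.103), although the 3 stimulated arrays lay above the 3 unstimulated ones. It passed without replicate 1 or 3 of the P/I-stimulated DMSO group (limma adjusted p = 0.0755 and 0.0508), which leave the value itself as it was, and also when the number was blocked (limma adjusted p = 0.0801). The same response passed with quantile normalization (log2 0.31, limma adjusted p = 0.0858) and with a variance trend (limma adjusted p = 0.0753). The difference between the responses was -0.96 (SE 0.15, limma adjusted p = 0.00191).

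Tnfsf10 encodes TRAIL, a death ligand that many cell types induce in response to interferon. It had 4.47, 4.62 and 4.74 in P/I-stimulated cells with CHX, 4.39, 4.60 and 4.47 in P/I-stimulated cells, 4.54, 4.53 and 4.55 in unstimulated cells with CHX and 4.47, 4.53 and 4.51 in unstimulated cells. Each group overlapped at least 1 other group. The P/I effect was -0.02 in DMSO-treated cells (interval -0.20 to 0.17) and 0.07 in CHX-treated cells (interval -0.11 to 0.26), and the CHX effect during P/I was 0.13 (interval -0.06 to 0.31). All of these intervals include 0.

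**Figure D3:**
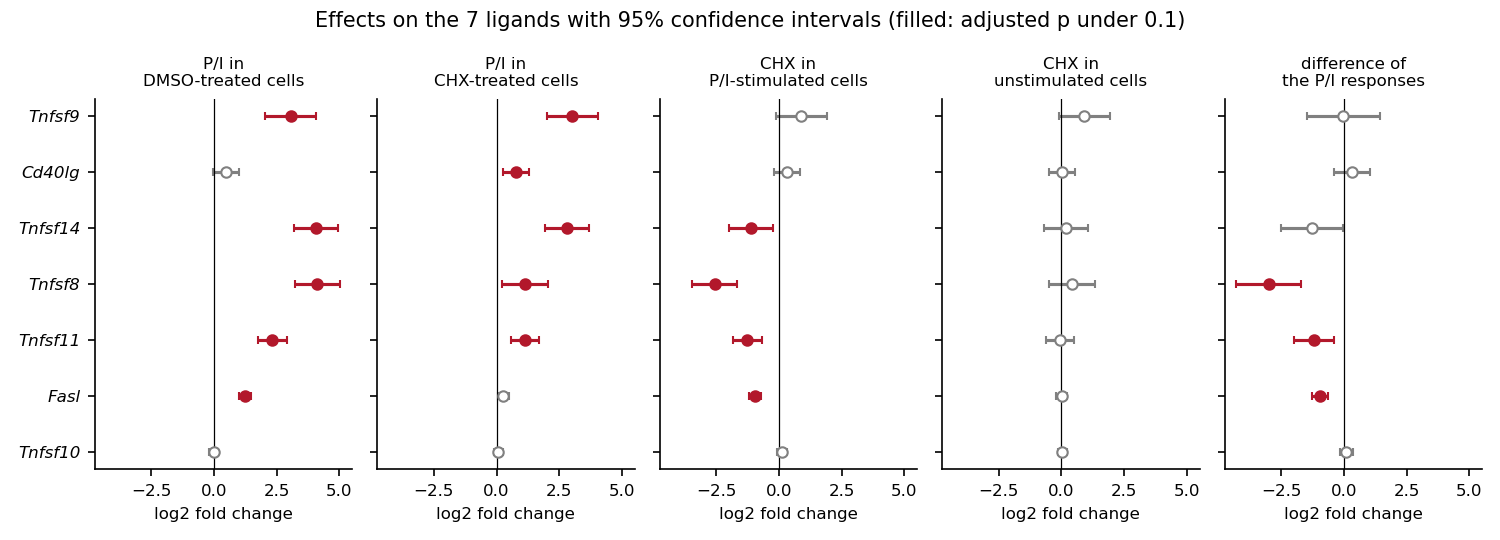
Log2 fold changes of the 7 ligands in the 5 comparisons, with 95% confidence intervals from limma on the x axis and 1 row per gene. Filled red points passed an adjusted p under 0.1; P/I raised 5 ligands with DMSO and 5 with CHX, CHX lowered 4 during P/I, and no ligand passed in unstimulated cells.

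In CHX-treated cells, where the question was which ligands P/I raises when protein synthesis is blocked, 5 of the 7 rose and none fell, namely Tnfsf9, Tnfsf14, Tnfsf11, Tnfsf8 and Cd40lg. Of all probe sets, 10.2% were higher and 11.6% lower. Because the unstimulated cells are labelled 0 h and their time in CHX is not given, P/I and a longer exposure to CHX cannot be told apart in this comparison. The test of the difference between the P/I responses uses the same unstimulated CHX group and carries the same limit. It called Fasl, Tnfsf11 and Tnfsf8 smaller in CHX-treated cells and no ligand larger. It called 7.62% of all probe sets in that direction and 6.04% in the other, with 1783 lower and 1413 higher that became 1625 and 2065 after quantile normalization.

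CHX on its own, compared with DMSO in unstimulated cells, changed none of the 7 ligands by limma, and none had an unadjusted p under 0.05. The unstimulated cells are labelled 0 h and their time in CHX is not given, so an exposure as long as that during P/I may not be covered. Only 0.0299% of all probe sets were called in this comparison. The ligand nearest to the threshold was Tnfsf9, with an unadjusted p = 0.0744 from limma. The intervals reach a 2-fold difference for Tnfsf9, Tnfsf8 and Tnfsf14 (upper ends 1.94, 1.34 and 1.05 on the log2 scale), so an effect of that size is not excluded for them.

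The spread between replicates was unequal between the groups. In P/I-stimulated cells with CHX the SD was 1.12 for Tnfsf14, 1.09 for Tnfsf8, 1.07 for Tnfsf9, 0.57 for Tnfsf11 and 0.52 for Cd40lg, beside a median SD of 0.11 over all probe sets in that group. In P/I-stimulated cells it was 0.24 for Tnfsf14, 0.08 for Tnfsf8, 0.68 for Tnfsf9, 0.09 for Tnfsf11 and 0.39 for Cd40lg, beside a median of 0.16. For Fasl it was 0.13 with P/I and CHX and 0.19 with P/I. Replicate 1 was the highest of the 3 arrays with P/I and CHX for 6 of the 7 ligands, all but Tnfsf10. Among the 2118 probe sets raised by P/I it was the highest for 38.2%, and among all probe sets for 35.3%. In unstimulated cells with CHX replicate 1 was the highest for 5 of the 7 ligands, beside 38.1% and 36.1%. In each DMSO group it was the highest for 3 of the 7, beside 34.4% of all probe sets with P/I and 36.1% without. The model pools the spread over the 4 groups, so for Tnfsf14, Tnfsf8, Tnfsf9 and Tnfsf11 the error given for an effect with P/I and CHX can be too small and that for an effect without it too large.

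The signals of the ligands were also compared over the 12 arrays, as a description over arrays that share treatment groups. The 4 highest Pearson correlations were those of Tnfsf8 and Tnfsf11 with 0.972, Fasl and Tnfsf8 0.948, Tnfsf11 and Tnfsf14 0.937, and Tnfsf14 and Tnfsf8 0.921. Fasl and Cd40lg reached only 0.42, and Tnfsf9 correlated more with Cd40lg (0.903) and Tnfsf14 (0.884) than with Fasl (0.574). The genes most like each ligand apart from the 7 themselves, by the same measure, were then listed for the 6 ligands called in at least 1 comparison. For Tnfsf9 they were Nfkbiz, an atypical nuclear IκB protein, with 0.976, Tnf with 0.965 and Zdhhc13 with 0.964. For Cd40lg they were Lta, the lymphotoxin α gene, with 0.943, Tbl1x with 0.94 and Slc25a30 with 0.939. For Tnfsf14 they were the prostaglandin receptor gene Ptger4 with 0.995, the calcium channel gene Orai1 with 0.986 and Gramd1b with 0.985. For Tnfsf8 they were the protein kinase C gene Prkch with 0.986, Il2 with 0.98 and Slfn2 with 0.973, and for Tnfsf11 Chst2 with 0.976 and Slfn2 and Prkch with 0.974 each. Fasl was most like the chemokine gene Ccl1 with 0.985, the phosphatase gene Ptpn22 with 0.981 and the chemokine receptor gene Cxcr3 with 0.98. Of these neighbours Tnf was 2.43-fold higher with CHX during P/I, whereas the log2 effects of CHX were -5.31 for Il2 and -4.76 for Ccl1.

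In the RefSeq gene order several of the ligand genes adjoin other family members. On chromosome 17 Tnfsf9, Cd70 and Tnfsf14 follow each other with 0 other protein-coding genes between them. Cd70, the CD27 ligand gene in the middle, had a mean of 4.94 with P/I and CHX, 4.85 with P/I, 4.82 with CHX alone and 4.95 without either, and passed no test, while both of its neighbours rose with P/I. On chromosome 4 Tnfsf8 adjoins Tnfsf15, the TL1A gene, which did not pass the test for P/I in DMSO-treated cells (-0.01, interval -0.31 to 0.28) and was 1.36-fold higher with CHX during P/I (limma adjusted p = 0.0362), the opposite direction to Tnfsf8. On chromosome 1 Fasl adjoins Tnfsf18, the GITR ligand gene, which passed no test.

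Among 9 other TNF superfamily ligands measured of 11 listed, 2 rose with P/I in DMSO-treated cells and none fell. The shares over all probe sets were 9.05% higher and 8.42% lower. The 2 that rose were Tnf (11.2-fold, limma adjusted p = 4.96e-06) and Tnfsf4, the OX40 ligand gene (2.10-fold, limma adjusted p = 0.000782). With CHX during P/I, Tnf and Tnfsf15 were higher and Tnfsf4 was 1.75-fold lower (limma adjusted p = 0.00349). Among all probe sets 13.2% were higher and 12% lower in that comparison. In CHX-treated cells P/I raised 4 of the 9, Tnf (20.7-fold), Lta (1.75-fold), Tnfsf13b, the BAFF gene (1.37-fold), and Tnfsf15 (1.31-fold). It raised 10.2% of all probe sets there. The P/I median over these 9 ligands was -0.01, close to that of all probe sets.

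Of 11 receptors of the 7 ligands, decoys included, 1 rose with P/I in DMSO-treated cells and 2 fell. Over all probe sets 9.05% rose and 8.42% fell. Tnfrsf9, which encodes 4-1BB, the receptor of the Tnfsf9 product, rose 3.59-fold (limma adjusted p = 1.62e-06). Unlike its ligand it was 2.54-fold lower with CHX during P/I (log2 -1.35, limma adjusted p = 1.3e-05). Tnfrsf22, a TRAIL decoy receptor gene of the mouse, fell 1.60-fold with P/I (limma adjusted p = 0.0323), and Ltbr, the lymphotoxin β receptor gene, fell 1.19-fold (limma adjusted p = 0.0743). With CHX during P/I, 3 receptors were higher and 2 lower, beside 13.2% and 12% of all probe sets. Cd40, which encodes the receptor of CD40 ligand, was 2.14-fold higher (limma adjusted p = 5.98e-05), Tnfrsf22 2.24-fold and the second decoy receptor gene Tnfrsf23 1.47-fold higher. Fas was 1.28-fold lower (limma adjusted p = 0.0552). The median CHX effect over the receptors was 0.01, as it was over all probe sets. Tnfrsf11a, Tnfrsf11b, Tnfrsf8 and Tnfrsf10b, which encode RANK, osteoprotegerin, CD30 and the mouse TRAIL receptor, passed no test.

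Of 16 listed adaptors and proximal signalling genes 14 were measured, and 5 rose and 2 fell with P/I in DMSO-treated cells. The shares of all probe sets were 9.05% and 8.42%. Traf5 rose 2.96-fold, Traf1 2.46-fold, Tank 2.41-fold, Birc3, the cIAP2 gene, 2.31-fold and Cflar, the gene of the caspase-8 inhibitor cFLIP, 1.64-fold. Casp8 (log2 -0.58) and Ripk3, a necroptosis kinase gene (-0.41), fell. CHX during P/I split this list, with 5 higher and 3 lower, beside 13.2% and 12% of all probe sets. Birc3 was 4.31-fold, Traf2 2.90-fold, Traf1 2.57-fold, Birc2 1.34-fold and Ripk3 1.17-fold higher, whereas Traf5 was 3.70-fold, Traf3ip3 2.30-fold and Cflar 1.85-fold lower. The other 2 probe sets of Cflar rose 2.05-fold and 1.84-fold with P/I.

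**Figure D4:**
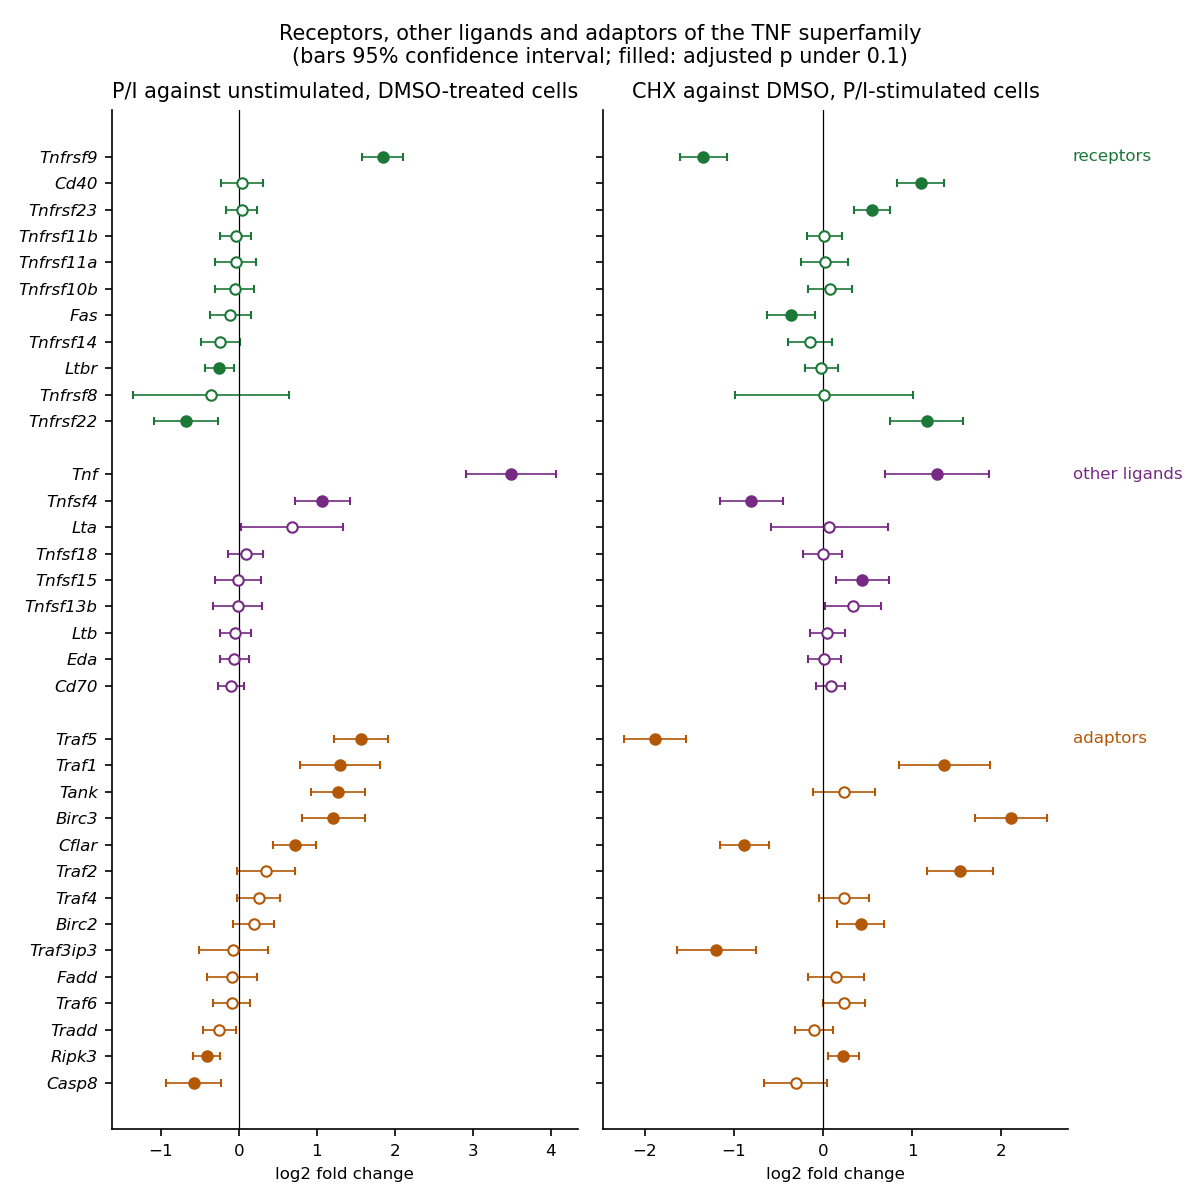
Log2 fold changes with 95% confidence intervals of 11 receptors, 9 other ligands and 14 adaptors, for P/I against unstimulated cells on DMSO (left) and for CHX against DMSO during P/I (right). Filled points passed an adjusted p under 0.1; Tnf, Birc3 and Traf1 lie right of 0 in both panels, and Tnfrsf9, Tnfsf4, Traf5 and Cflar right of 0 on the left and left of 0 on the right.

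Within groups the arrays correlated at 0.983 to 0.994 over all probe sets, with array medians of 5.55 to 5.71. The T cell markers Cd3g, Cd3e, Thy1, Zap70, Lat and Cd28 had means of 10.61 to 12.40. Cd2 had 8.69, Cd5 8.42, Cd3d 8.32 and Cd4 5.04, and 2 of the 12 listed T cell markers were not measured. With P/I in DMSO-treated cells Lat and Zap70 rose and Cd3e and Cd3g fell, and with CHX during P/I Cd3e and Cd3g were higher and Lat, Cd2 and Cd28 lower. Mean signals over all arrays were 4.22 to 7.09 for 5 B cell markers, 4.36 to 6.70 for 8 myeloid and dendritic markers, 4.20 to 5.93 for 6 NK cell markers and 6.06 to 6.72 for 3 stromal markers. Ms4a1, Lyz2 and Ncr1, which define B, myeloid and NK cells, passed no test. Summed over 6 NK cell markers the log2 signals were 28.00 to 28.24 with P/I and CHX, 29.99 to 30.99 with P/I, 28.08 to 28.61 with CHX alone and 28.26 to 28.77 without either, and its 2 members that passed a test, Gzma and Prf1, which activated T cells also express, rose with P/I and were lower with CHX during P/I. Blk (mean 5.43) and Cd68 (6.70) likewise rose with P/I and were lower with CHX during P/I (log2 -0.87 and -1.18), as were 4 of the ligands. Cd79b (7.09) fell with P/I and was higher with CHX during P/I, Adgre1 was higher with CHX during P/I, and no stromal marker passed. The summed signals of the B cell markers were 26.29 to 26.53, 25.95 to 27.43, 26.20 to 26.60 and 26.30 to 27.05 in the same order of groups, and those of the myeloid and dendritic markers 39.66 to 40.16, 40.47 to 40.71, 39.52 to 39.80 and 40.23 to 40.53. The part of other cell types in the ligand results was not tested. In bulk RNA, fewer responding cells and less RNA per cell cannot be told apart, and the table holds no detection calls, so signals near the bottom of the scale are given as measured.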

How the data were processed

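With Partek software the authors removed background by the RMA method, taking probe sequence into account, equalized the arrays by quantiles and deposited log2 values of 35399 probe sets on 12 arrays. They were used as deposited. The annotation table gives 1 symbol to 21789 probe sets, several to 1621 and none to 11989. The 23410 with a symbol were tested. A gene with several was represented by its brightest on average. Symbols, gene order and promoters came from RefSeq (GRCm38.p6).

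A mean per group was fitted to all arrays with limma 3.58.1 in R 4.3.3 (moderated variances, two-sided, Benjamini-Hochberg over all probe sets tested, called under 0.1). The authors used an analysis of variance at the same false discovery rate. Their rule defined primary response genes (higher with P/I, mean with P/I and CHX at or above that with P/I) and secondary ones (higher with P/I, lower with CHX). The fit was tested on simulated data. As a check of pairing, deviations from the group means were correlated between arrays with the same replicate number. The r was over 0.1 in 17 of 18 pairs, the exception being replicate 3 of both P/I-stimulated groups (0.0644). The numbers were therefore read as pairs, from the data and not the labels, for P/I in either treatment and for CHX without stimulation, but not for CHX during P/I or the difference of responses. The main fit left the number out, so its p-values ignore that pairing. The fit with the number as a block stands among the alternatives. The members and lists were chosen with earlier results of these data known, and every measured member of each list is counted. The 3 most similar genes were taken by Pearson correlation, without members, predicted genes, receptor clusters of smell and small RNAs. The number of arrays limits the precision, and p-values measure the spread between the labelled biological replicates. Tried alternatives were the replicate number as a block, 2 other normalizations, all probe sets, a mean of at least log2 5, a variance trend, no moderation, a threshold of 0.05 and leaving out arrays.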

Additional observations from a re-analysis of the deposited data

Results flagged for a closer look

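The response to P/I differed between CHX-treated and DMSO-treated cells, by the limma test of the difference itself, for 14 genes. They came from the 7 ligands, 11 receptors, 9 other TNF superfamily ligands and 14 adaptors measured. Over all probe sets the same test called 7.62% lower and 6.04% higher. Here too P/I and a longer exposure to CHX cannot be told apart. The response was smaller in CHX-treated cells for the ligands Tnfsf8 (log2 difference -3.00), Tnfsf11 (-1.20) and Fasl (-0.96) and for Tnfsf4 (-0.90). It was also smaller for the receptor Tnfrsf9 (-1.22) and for Traf5 (-1.90), Traf3ip3 (-1.31) and Cflar (-0.98). It was larger in CHX-treated cells for Birc3 (2.02), Traf1 (1.31), Traf2 (1.09), Cd40 (1.03), Tnfrsf22 (1.19) and Tnfrsf23 (0.52). The adjusted p of these 14 lay between 0.000296 and 0.0636 in limma. No array was screened as an outlier. The ligand effects were refitted without each array, and the call for Tnfsf11 was lost without several of them, as given above.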

How the results depend on the processing

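No ligand called in any comparison changed direction under any alternative, and of the single effects 732 kept their side of the threshold, 44 lost and 14 gained a call. Of the 5 ligands raised by P/I in DMSO-treated cells, 5 were called in every analysis that left out arrays. With the replicate number as a block, 1 ligand was higher with CHX during P/I (Tnfsf9, limma adjusted p = 0.00928) and 2 were primary response genes, as Cd40lg was then induced (limma adjusted p = 0.0809). The block also called the P/I response of Fasl in CHX-treated cells and the smaller response of Tnfsf14 there (limma adjusted p = 0.0801 and 0.0914). It raised the calls over all probe sets for P/I in DMSO-treated cells to 3034 higher and 3026 lower, and for CHX without stimulation to 115 and 4. Deviations of arrays with the same number correlated at 0.0644 to 0.75, and those with other numbers at -0.581 to 0.309. Of 12 arrays 10 correlated best with their own number in every other group, a hint from the data and not from the design. Other calls on the ligands did not change with the block. With quantile normalization 1 ligand, Tnfsf10, was higher with CHX during P/I (log2 0.19, limma adjusted p = 0.075). That normalization and a variance trend each also called the P/I response of Fasl in CHX-treated cells (limma adjusted p = 0.0858 and 0.0753). Without moderation of the variance 3 ligands rose with P/I in CHX-treated cells. The CHX effect on Tnfsf14 and the difference for Tnfsf11 then lost their calls too (unmoderated t-test, adjusted p = 0.178 and 0.157). The cause of these changes was not tested.

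Leaving out arrays gave 3 to 6 ligands raised by P/I in CHX-treated cells, 2 to 4 lower and 0 to 1 higher with CHX during P/I, 1 to 4 with a smaller response to P/I in CHX-treated cells, 0 to 1 higher with CHX alone and 2 to 4 secondary response genes. Without replicate 2 of all groups the CHX effect on Tnfsf11 lost its call (log2 -1.19, limma adjusted p = 0.111), and without replicate 3 the difference for Tnfsf8 did (-2.79, limma adjusted p = 0.231). The CHX effect on Tnfsf14 lost its call in both of these fits (limma adjusted p = 0.327 and 0.476), as did the response of Tnfsf8 in CHX-treated cells and the difference for Tnfsf11. In CHX-treated cells the response of Tnfsf11 lost its call without replicate 2 (limma adjusted p = 0.115). That of Cd40lg did without replicate 3 (limma adjusted p = 0.34). Without replicate 1 the response of Tnfsf8 in CHX-treated cells was 0.73 (limma adjusted p = 0.0112). A mean of at least log2 5 leaves Fasl, Cd40lg and Tnfsf10 untested. At a threshold of 0.05 the CHX effect on Tnfsf14, the response of Tnfsf8 in CHX-treated cells and the difference for Tnfsf11 are not called. After median centring the first of these (-1.04, limma adjusted p = 0.116) and the second (1.15, limma adjusted p = 0.115) are not. Testing all probe sets also lost the second (limma adjusted p = 0.113).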
